A study of Neurospora crassa with 3 samples.

Results

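Transcript levels of all annotated genes of the filamentous fungus Neurospora crassa were compared between strains labelled set-2 ash1(Y888F) and strains labelled H3G34R. In strains N6266 and N6267 a tyrosine of the histone methyltransferase ASH1 is replaced by phenylalanine, and set-2 is described as deleted. In strains N5247 and N5248 a glycine of histone H3 is replaced by arginine, with no change named at set-2. The comparison uses 2 of the 3 samples of the series and 4 of its 6 poly-A RNA libraries, 1 library per strain, and it was chosen by these labels alone. The remaining sample, set-2 H3G34R (a single strain, N6777, with 2 libraries), entered the model for its estimate of the spread between libraries. All cultures had been shaken in Vogel's liquid medium for 18 h at 32 °C. The labels call the source germinated conidia and the tissue mycelia.

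Methylation of lysine 36 of histone H3 in Neurospora is set by SET-2, which travels with RNA polymerase II over transcribed genes, and by ASH1, which marks mainly poorly transcribed genes. Genes under ASH1 often also carry the repressive methylation of lysine 27. Glycine 34 lies in the same stretch of the histone tail as lysine 36, and the series asks how its replacement by arginine bears on ASH1 activity.

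Each genotype was represented by 2 strains, so the spread between its libraries includes differences between strains, and the p-values rest on that spread together with the spread between the 2 libraries of strain N6777, which includes no strain difference; without N6777 3979 genes were called, against 4435 with it. Gene-assigned reads on the sense strand came to 8.43 M and 7.52 M for set-2 ash1(Y888F), against 9.41 M and 9.83 M for H3G34R. Between the 2 libraries of a genotype the median absolute log2 difference over the 8561 genes tested was 0.23 in set-2 ash1(Y888F) and 0.13 in H3G34R. Between libraries of different genotypes it was 0.51 to 0.57. The libraries also differed in composition: the 100 genes with most reads held 30.5% and 30.1% of sense reads in set-2 ash1(Y888F), against 25.5% and 26.4% in H3G34R.

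The genes named by the labels were examined first. Reads from set-2 were present at 23.2 and 18.3 CPM (reads per library size, with library sizes scaled by TMM) in set-2 ash1(Y888F), against 31.0 and 24.1 CPM in H3G34R. These reads go against a description of the strains as lacking set-2, so the genotype name is used here as a label; which part of the gene the reads cover cannot be told from counts per gene. The difference did not pass the test (log2 fold change -0.41, standard error (SE) 0.19, edgeR quasi-likelihood test with Benjamini-Hochberg adjustment, adjusted p = 0.110), though it did without N6266 (-0.59, edgeR adjusted p = 0.0464). The ash1 gene (NCU01932, listed as set-3 in the reference table) was lower, at 91.6 and 90.1 CPM in set-2 ash1(Y888F) against 149 and 148 CPM in H3G34R (log2 fold change -0.71, SE 0.0945, edgeR adjusted p = 0.00131). Transcripts of hH3, the histone H3 gene, stood at 1804 and 1565 CPM in set-2 ash1(Y888F) and at 1711 and 1779 CPM in H3G34R, with overlapping libraries and an edgeR adjusted p of 0.757. Amino acid changes cannot be read from gene counts.

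The strains also differed at a locus outside the labels. mus-52, which encodes the Ku80 subunit of the DNA end-joining machinery, had 0 reads in both set-2 ash1(Y888F) libraries, 2 reads in H3G34R strain N5247 and 922 reads in H3G34R strain N5248. Its neighbour qip, which encodes an exonuclease of the quelling pathway, stood at 128 and 120 CPM in set-2 ash1(Y888F) and at 167 CPM in N5247, against 25.4 CPM in N5248. The 3 libraries with at most 2 mus-52 reads were thus the 3 with high qip, whatever their genotype label, and qip did not pass the test between genotypes (edgeR adjusted p = 0.68). With 1 library left out it was 2.29 and called without N5247 (edgeR adjusted p = 0.00124), and -0.43 without N5248. NCU08378 likewise separated the H3G34R strains, with 2041 reads in N5247 and 0 in N5248, and 0 in both set-2 ash1(Y888F) libraries. The part of these strain differences in the results below was not tested; the calls without each H3G34R library are given beside the counts that depend on them.

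**Figure D1:**
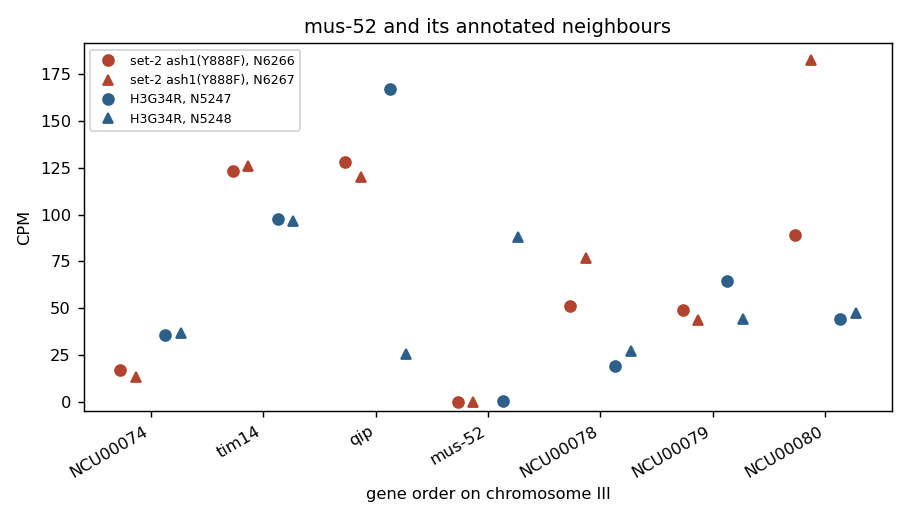
CPM of mus-52 and its 3 annotated neighbours on each side, in gene order, in the 4 libraries (red, set-2 ash1(Y888F); blue, H3G34R). N5248, with 922 mus-52 reads against at most 2 in the other libraries, stands lowest at qip.

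A large share of the transcriptome differed between the genotypes. Of 8561 genes tested, 4435 passed an adjusted p of 0.05 (51.8%), of which 2249 were higher in set-2 ash1(Y888F) (26.3%) and 2186 lower (25.5%). Of the called genes 2124 differed by less than 1 on the log2 scale, and the median log2 fold change over all genes tested was -0.0014. A difference of at least 4-fold was called for 982 genes (11.5%), 423 higher (4.94%) and 559 lower (6.53%). Leaving out N5247 or N5248 lowered the number called to 2754 or 2968. Without TMM scaling the median log2 fold change shifts by -0.29, and the split becomes 1511 higher and 3396 lower; with TMM 50.7% of the called genes were higher, and without it 30.8%. Directions of differences smaller than this shift therefore depend on the scaling. In bulk RNA, fewer cells of a type and less RNA per cell cannot be told apart.

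**Figure D2:**
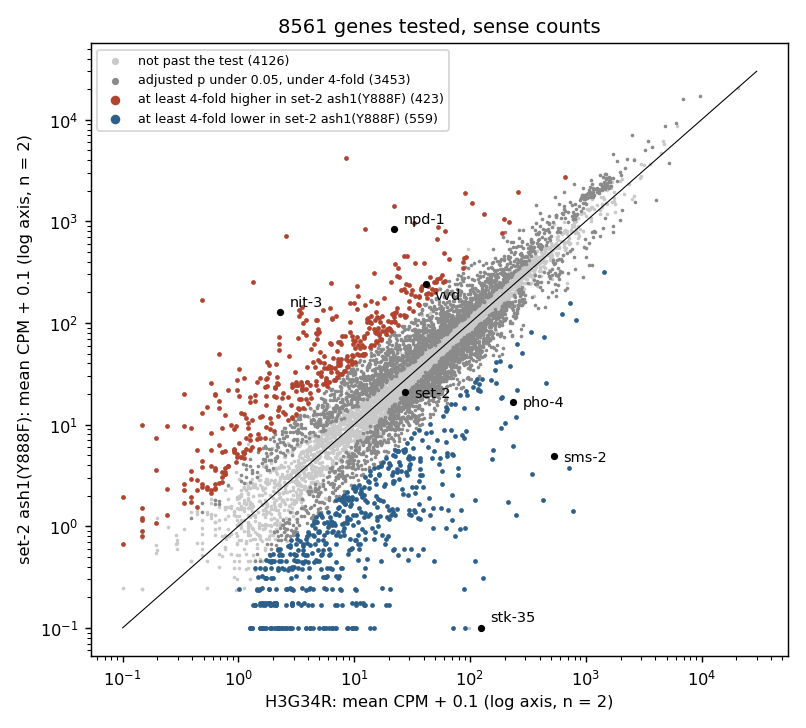
Mean CPM (plus 0.1, log axes, 2 libraries each) of the 8561 genes tested, set-2 ash1(Y888F) on the vertical axis and H3G34R on the horizontal axis; points above the line are higher in set-2 ash1(Y888F). The 559 genes lower by at least 4-fold reach down to the floor of the plot, where no reads were found in set-2 ash1(Y888F), while the 423 higher genes lie above the line, up to 3530 and 4882 CPM at NCU01402.

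Some genes were read in H3G34R and silent in set-2 ash1(Y888F). Of the genes averaging at least 10 CPM in one genotype, 8 had no read in strains N6266 and N6267, and none had no read in strains N5247 and N5248; mus-52 and NCU08378 were 2 of the 8. The serine-threonine kinase gene stk-35 had 0 reads in both set-2 ash1(Y888F) libraries, against 122 and 128 CPM in H3G34R, at least 294-fold lower when each empty library is set to 3 reads. NCU04706 had 0 reads in both set-2 ash1(Y888F) libraries, against 90.3 and 91.5 CPM in H3G34R, at least 213-fold lower. The rest of the 8, NCU09968, NCU04624, NCU04707 and NCU09907, were at least 168-fold, 34.5-fold, 31.8-fold and 23.9-fold lower. NCU09968 was the least even of these in H3G34R, with 95.3 CPM in N5247 and 48.2 CPM in N5248.

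Other genes were nearly silent. NCU00425 had 0.813 and 1.78 CPM in set-2 ash1(Y888F), against 731 and 817 CPM in H3G34R (log2 fold change -9.22, SE 0.266, edgeR adjusted p = 6.71e-06). NCU08796 had 3 reads in all in set-2 ash1(Y888F) against 2717 in H3G34R, a 614-fold higher level in H3G34R (exact 95% counting interval 210 to 2977). NCU06888 had 2 reads in set-2 ash1(Y888F) against 1850 in H3G34R, 627-fold higher in H3G34R (interval 173 to 5178). These intervals cover counting error only. At NCU00425 the 2 H3G34R libraries lay close together, whereas the set-2 ash1(Y888F) libraries held only 6 and 12 reads. This gene was picked from those called with no overlap between the genotypes. Among genes with a symbol, 4 further kinase genes of the stk series were among the lowest: stk-56 with 0.678 and 1.04 CPM in set-2 ash1(Y888F) against 85.6 and 94.4 CPM in H3G34R, and stk-54, stk-36 and stk-53 with log2 fold changes of -6.26, -5.28 and -4.83. The chitinase gene gh18-1 had 2 reads in all in set-2 ash1(Y888F) against 357 in H3G34R, 121-fold higher in H3G34R (interval 33.2 to 1002); its fitted log2 fold change of -6.78 became -10.33 without N6267. The gene parp, for a poly(ADP-ribose) polymerase, stood at 11.1 and 12.3 CPM in set-2 ash1(Y888F) against 270 and 228 CPM in H3G34R (log2 fold change -4.41, SE 0.149, edgeR adjusted p = 1.07e-05).

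In the other direction, some genes that were nearly silent in H3G34R were among the well-expressed genes of set-2 ash1(Y888F). NCU01402 reached 3530 and 4882 CPM in set-2 ash1(Y888F), against 8.87 and 7.94 CPM in H3G34R (log2 fold change 8.96, SE 0.262, edgeR adjusted p = 6.71e-06). NCU00995 had 732 and 708 CPM in set-2 ash1(Y888F) against 2.41 and 2.58 CPM in H3G34R, and NCU02932 had 170 and 168 CPM in set-2 ash1(Y888F) against 0.193 and 0.574 CPM in H3G34R, with log2 fold changes of 8.16 and 8.73. These genes were picked from called genes whose libraries do not overlap between the genotypes, and NCU02932 rests on few H3G34R reads. NCU00732 was less even, with 71.6 and 432 CPM in set-2 ash1(Y888F) against 0.578 and 1.91 CPM in H3G34R (log2 fold change 7.64, SE 1.07). NCU11365 and NCU06413 had log2 fold changes of 6.03 and 6.09, and NCU07597, NCU05628 and NCU00298 of 6.39, 6.29 and 5.69. Among genes with a symbol, npd-1 stood at 666 and 1009 CPM in set-2 ash1(Y888F) against 21.0 and 23.2 CPM in H3G34R (log2 fold change 5.24), ecd-2 at 80.0 and 136 CPM in set-2 ash1(Y888F) against 4.05 and 5.17 CPM in H3G34R (4.55), and mig-10 at 211 and 300 CPM in set-2 ash1(Y888F) against 21.4 and 19.7 CPM in H3G34R (3.63). The laccase gene lacc was called (log2 fold change 3.11, edgeR adjusted p = 0.00936), but its libraries were uneven, with 101 and 378 CPM in set-2 ash1(Y888F) against 39.7 and 15.7 CPM in H3G34R, and it was not called without N5248 (edgeR adjusted p = 0.0588); its log2 fold change was 1.86 without N6267.

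Among nitrogen genes, several for the use of nitrate, amino acids and allantoin were higher. Of 17 genes tested, 5 were higher, 3 lower and 9 did not pass, with a median log2 fold change of 0.18; the shares lie near those over all genes, 26.3% higher and 25.5% lower. The nitrate reductase gene nit-3 stood at 121 and 135 CPM in set-2 ash1(Y888F) against 1.45 and 2.97 CPM in H3G34R (log2 fold change 5.84, SE 0.28, edgeR adjusted p = 3.72e-05). The nitrate transporter gene nit-10 stood at 91.5 and 87.9 CPM in set-2 ash1(Y888F) against 14.9 and 17.1 CPM in H3G34R (2.48), and the nitrite reductase gene nit-6 at 508 and 699 CPM in set-2 ash1(Y888F) against 277 and 349 CPM in H3G34R (0.95; not called without N5247, edgeR adjusted p = 0.0601). The difference at nit-3 was the largest of the list. Also higher were lao, for an L-amino acid oxidase, at 389 and 194 CPM in set-2 ash1(Y888F) against 32.3 and 14.4 CPM in H3G34R (3.64), and aln-1, for allantoinase, at 238 and 221 CPM in set-2 ash1(Y888F) against 34.4 and 42.2 CPM in H3G34R (2.58). nit-2, the GATA-type activator of nitrogen catabolic genes, was lower, at 177 and 163 CPM in set-2 ash1(Y888F) against 267 and 294 CPM in H3G34R (-0.72), as was nmr, whose product restrains NIT2 (-0.70). nit-4, the nitrate-specific activator, had a log2 fold change of -0.18 with an edgeR adjusted p of 0.46.

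Of 7 phosphate genes, 3 were lower, 2 higher and 2 did not pass, with a median log2 fold change of -0.15. Over all genes 25.5% were lower and 26.3% higher. The high-affinity phosphate permease gene pho-5 stood at 3.80 and 2.38 CPM in set-2 ash1(Y888F) against 83.4 and 74.4 CPM in H3G34R (log2 fold change -4.66, SE 0.23, edgeR adjusted p = 3.8e-05). The sodium-dependent permease gene pho-4 stood at 25.9 and 7.28 CPM in set-2 ash1(Y888F) against 278 and 197 CPM in H3G34R (-3.83), and the repressible alkaline phosphatase gene pho-2 at 5.29 and 3.71 CPM in set-2 ash1(Y888F) against 30.8 and 28.9 CPM in H3G34R (-2.72). pho-4 was less even between the set-2 ash1(Y888F) strains than pho-5, yet both strains lay far below both H3G34R strains. nuc-1, the activator of these genes, and nuc-2, upstream of it, did not pass (log2 fold changes 0.12 and -0.15). The acid phosphatase gene pho-3 (1.51) and preg, for the cyclin that restrains NUC-1 (0.40), were higher. The call of pho-3 was lost without N5247, N5248 or N6267 (edgeR adjusted p = 0.169, 0.0814 and 0.147; log2 fold change 0.61 without N6267), and that of preg without N5247, N5248 or N6266 (0.0963, 0.199 and 0.131). Neither was called without TMM or from the 4 libraries alone.

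**Figure D3:**
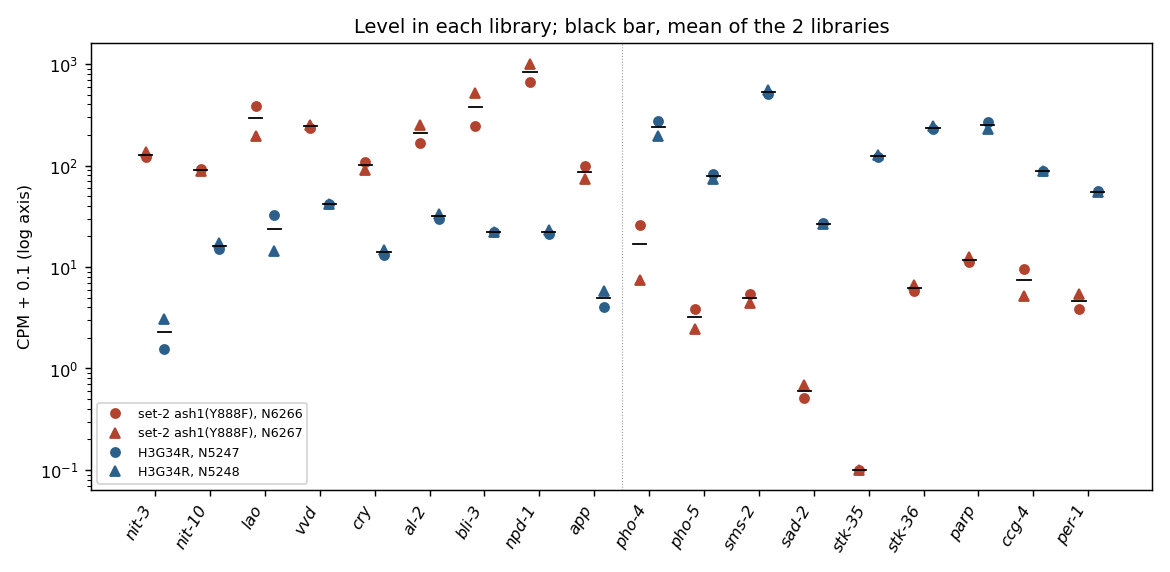
CPM (plus 0.1, log axis) of 18 genes in the 4 libraries (red, set-2 ash1(Y888F); blue, H3G34R; black bars, means of 2). The 9 genes left of the dotted line are higher in set-2 ash1(Y888F) and the 9 right of it are lower. No gene shows overlap between the genotypes, but most of the 18 were picked by a rule that required this.

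Among the 20 clock and light genes, 8 were higher and 8 lower, beside 26.3% higher and 25.5% lower over all genes. Of the higher ones, the blue-light receptor gene vvd stood at 236 and 250 CPM in set-2 ash1(Y888F) against 41.5 and 41.4 CPM in H3G34R (log2 fold change 2.55), the cryptochrome gene cry at 109 and 91.0 CPM in set-2 ash1(Y888F) against 13 and 14.6 CPM in H3G34R (2.86), and the light-induced gene bli-3 at 247 and 516 CPM in set-2 ash1(Y888F) against 22.3 and 22.3 CPM in H3G34R (4.10). Of the carotenoid genes, al-2, for phytoene synthase, was higher (169 and 253 CPM in set-2 ash1(Y888F) against 29.6 and 33.4 CPM in H3G34R, log2 fold change 2.74), and so was al-1, for phytoene dehydrogenase (1.42). al-3, for geranylgeranyl pyrophosphate synthase, was lower (-0.54). The photoreceptor gene nop-1, for an opsin (-2.03), and csp-1, for a light-induced transcription repressor (-1.10), were lower. nop-1 was not called without N5248, N6266 or N6267 (edgeR adjusted p = 0.179, 0.0707 and 0.135). al-1 was not called without N5247 or N5248 (edgeR adjusted p = 0.137 and 0.0839), nor al-3 without N5247, N5248 or N6267 (0.112, 0.0672 and 0.0536).

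The circadian genes were mixed. frq, the clock's negative element (0.61), and wc-2 (0.73) were higher, whereas wc-1, the photoreceptor partner of WC-2 (-0.33), and frh, for the helicase bound to FRQ (-0.86), were lower. The phytochrome gene phy-1 was lower, at 11.8 and 11.1 CPM in set-2 ash1(Y888F) against 40.1 and 39.6 CPM in H3G34R (-1.80). The clock-controlled trehalose synthase gene ccg-9 was lower at 12.5 and 23.9 CPM in set-2 ash1(Y888F) against 135 and 235 CPM in H3G34R (-3.35). Over the clock and light list, 8 of 20 genes were higher, 8 lower and 4 did not pass, with a median of -0.19; without N5247 it was 4 higher and 5 lower, without N5248 5 and 4, without N6267 6 and 5, and without TMM 5 and 9. frq was not called without N5247, N5248 or N6267 (edgeR adjusted p = 0.168, 0.0629 and 0.0607), nor wc-1 (0.136, 0.180 and 0.103).

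Conidiation genes mark asexual spores and aerial hyphae, and some differed widely between the 2 set-2 ash1(Y888F) strains. The shares called lay near those over all genes, 26.3% higher and 25.5% lower. ccg-1 stood at 88.4 and 549 CPM in set-2 ash1(Y888F) against 1218 and 1637 CPM in H3G34R (log2 fold change -2.16, edgeR adjusted p = 0.043), with N6266 far below N6267. con-10 had 3.25 and 13.5 CPM in set-2 ash1(Y888F) against 48.6 and 44.2 CPM in H3G34R (-2.49), and tah-3 had 126 and 185 CPM in set-2 ash1(Y888F) against 727 and 728 CPM in H3G34R (-2.23). By contrast the regulators rca-1 (1.38) and acon-3 (1.96) were higher, and eas, for the hydrophobin of the spore coat, had 82.3 and 24.9 CPM in set-2 ash1(Y888F) against 7.23 and 19.7 CPM in H3G34R and did not pass (edgeR adjusted p = 0.089; 0.0301 without N6267). Without N5247, ccg-1, con-10 and acon-3 were not called (edgeR adjusted p = 0.0940, 0.0626 and 0.0508), and without N5248 neither ccg-1 nor con-10 was (0.144 and 0.0520). The log2 fold change of ccg-1 was -1.37 without N6266 and -4.01 without N6267, and that of con-10 was -3.83 without N6267. In all 3 of 15 were higher, 4 lower and 8 did not pass; without N5247 it was 1 higher and 2 lower, without N5248 3 and 2, and without N6266 5 and 4. The summed level of the 15 genes was 1067 and 2516 CPM in set-2 ash1(Y888F), against 2939 and 3462 CPM in H3G34R, and none of the 15 was at 0 in any of these libraries. These sums depend strongly on the uneven gene ccg-1, which alone gave 88.4 and 549 CPM in set-2 ash1(Y888F) against 1218 and 1637 CPM in H3G34R. The summed level of 5 genes of growing hyphae was 33404 and 31926 CPM in set-2 ash1(Y888F), against 27121 and 29624 CPM in H3G34R. This small difference depends on the scaling: the median log2 fold change of the 5 was 0.40, and 0.11 without TMM. The part of spore or aerial material in the results was not tested.

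Of 17 genes of the sexual cycle tested, 8 were lower (25.5% of all genes were), 2 higher and 7 did not pass, with a median log2 fold change of -0.80 beside -0.0014 over all genes. The pheromone precursor gene ccg-4 stood at 9.49 and 5.05 CPM in set-2 ash1(Y888F) against 88.0 and 89.0 CPM in H3G34R (-3.59, SE 0.261, edgeR adjusted p = 0.000136), and per-1, for the polyketide synthase of perithecial pigment, at 3.80 and 5.35 CPM in set-2 ash1(Y888F) against 55.4 and 54.5 CPM in H3G34R (-3.59). Of the mating type A genes, matA-2 had 0.678 and 1.04 CPM in set-2 ash1(Y888F) against 7.62 and 8.61 CPM in H3G34R (-3.23), and matA-3 had 2.44 and 2.97 CPM in set-2 ash1(Y888F) against 21.1 and 22 CPM in H3G34R (-2.99). matA-1, the mating identity gene, had 9.49 and 20.8 CPM in set-2 ash1(Y888F) against 23 and 22.1 CPM in H3G34R and did not pass (edgeR adjusted p = 0.17; 0.00136 without N6267), so all 4 libraries held reads of the A idiomorph. The pheromone receptor gene pre-1 (-1.14) and the regulator gene fsd-1 (-1.40) were lower too; pre-1 was not called without N5247, N5248 or N6266 (edgeR adjusted p = 0.0982, 0.0673 and 0.0561). A pair of genes went the other way: app, for an abundant protein of the perithecium, at 98.3 and 74.1 CPM in set-2 ash1(Y888F) against 3.95 and 5.64 CPM in H3G34R (4.16), and asd-1, needed for ascus development (1.77). The list's summed level was 566 and 627 CPM in set-2 ash1(Y888F), against 730 and 739 CPM in H3G34R, with 1 member at 0 in N6266 and 1 in N5248.

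Genes of meiotic silencing, which acts on unpaired DNA in the sexual cycle, showed the largest differences of the RNA silencing genes. sms-2, for the Argonaute protein of this pathway, stood at 5.29 and 4.31 CPM in set-2 ash1(Y888F) against 509 and 555 CPM in H3G34R (log2 fold change -6.79, SE 0.171, edgeR adjusted p = 6.19e-06). sad-2, for the protein that anchors the silencing complex, stood at 0.407 and 0.594 CPM in set-2 ash1(Y888F) against 26.8 and 26.5 CPM in H3G34R (-5.71), and sad-3, for a helicase, at 0.407 and 0.743 CPM in set-2 ash1(Y888F) against 17.3 and 19.6 CPM in H3G34R (-4.99). sad-1, for the RNA-dependent RNA polymerase of the pathway, was lower by less (-1.45). Of the vegetative quelling genes, qde-2, for the other Argonaute, was higher, at 446 and 405 CPM in set-2 ash1(Y888F) against 186 and 185 CPM in H3G34R (1.20), and so was the Dicer gene dcl-1 (0.62; not called without N5247 or N6267, edgeR adjusted p = 0.166 and 0.0917), whereas the polymerase gene qde-1 (-1.29) and the RecQ helicase gene qde-3 (-1.40) were lower. The 2 Argonaute genes thus differed in opposite directions. Together 10 of 18 genes tested were lower, 3 higher and 5 did not pass, with a median of -0.66. Over all genes tested 25.5% were lower and 26.3% higher.

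Genes for other chromatin modifiers were more often lower than higher. Among genes for methylation of lysines 4 and 9 of histone H3 and of DNA, 10 of 19 were lower and 2 higher, with a median log2 fold change of -0.38. The shares over all genes were 25.5% lower and 26.3% higher. set-1, the lysine 4 methyltransferase gene, stood at 56 and 60.4 CPM in set-2 ash1(Y888F) against 118 and 101 CPM in H3G34R (-0.92), the lysine 9 methyltransferase gene dim-5 at 12.2 and 10.1 CPM in set-2 ash1(Y888F) against 20.2 and 20.2 CPM in H3G34R (-0.86), and the histone deacetylase gene hda-1 at 41.6 and 40.5 CPM in set-2 ash1(Y888F) against 83.7 and 77.6 CPM in H3G34R (-0.97). chap, whose product works together with HDA-1, was higher, at 70.8 and 49.6 CPM in set-2 ash1(Y888F) against 24.3 and 21.0 CPM in H3G34R (1.41). These were modest differences beside those of the genes above with few or no reads in set-2 ash1(Y888F). set-7, for the lysine 27 methyltransferase, was lower at 33.1 and 33.9 CPM in set-2 ash1(Y888F) against 48.2 and 42.9 CPM in H3G34R (-0.44, edgeR adjusted p = 0.026), and cac-3, for a histone-binding protein of the complex around SET-7, was lower by more (-0.90). dim-5 was not called without N5247 or N5248 (edgeR adjusted p = 0.0575 and 0.0547), nor set-7 without N5247, N5248 or N6266 (0.157, 0.0592 and 0.0510). Without N5247 or without N5248 the count of the first list was 5 lower and 1 higher, and without TMM 14 lower and 1 higher. Of the histone genes, the linker histone gene hH1 (1.27) and hH2A (0.78) were higher and hH4-2 was lower (-0.79).

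Several lists of housekeeping genes held many higher and few lower members, beside 26.3% higher and 25.5% lower over all genes. For respiratory complex I, the NADH dehydrogenase of mitochondria, 25 of 30 genes were higher, none was lower and 5 did not pass, with a median log2 fold change of 0.76. The largest difference was at nuo14.8, with 236 and 287 CPM in set-2 ash1(Y888F) against 81.8 and 91.7 CPM in H3G34R (1.59); nuo51, a flavoprotein subunit, stood at 375 and 418 CPM in set-2 ash1(Y888F) against 280 and 291 CPM in H3G34R (0.48; not called without N5247 or N5248, edgeR adjusted p = 0.0902 and 0.0653). Without TMM 20 of the 30 were still higher and none lower, with a median of 0.47. Of the V-ATPase genes, for the pump that acidifies vacuoles, 12 of 13 were higher, led by vma-7 with 150 and 145 CPM in set-2 ash1(Y888F) against 46.3 and 50.9 CPM in H3G34R (1.60). That count was 5 without N5247, 6 without N5248 and 5 without TMM. All 7 ribosomal protein genes of the crp series were higher (0.53 to 0.80), but 1 of 7 was called without N5247, 1 without N5248 and 2 without TMM. Of 23 proteasome genes 15 were higher and none lower, with a median of 0.40; 7 were higher without N5247, 7 without N5248, and without TMM 6 were higher and 2 lower. Other such lists held fewer calls: of 20 peroxisome genes 6 were higher and 1 lower, of 16 citric acid cycle genes 5 were higher and 1 lower, and of 11 chaperone genes 2 were higher and 3 lower. Without N5247 the peroxisome count was 3 higher and none lower, the citric acid cycle count 2 and none, and the chaperone count none and 1. Without N5248 these were 4 and none, 4 and none, and 1 and 1; the citric acid cycle count was 4 and 5 without N6266 and 9 and 1 without N6267.

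Of 21 mitochondrial import genes, for the translocases of the outer and inner membranes, 8 were lower (25.5% of all genes were), 1 was higher and 12 did not pass, with a median of -0.26 (14 lower and none higher without TMM). tim50, a receptor of the inner membrane translocase, stood at 136 and 95.2 CPM in set-2 ash1(Y888F) against 250 and 253 CPM in H3G34R (-1.12), and tob37, of the complex that inserts outer membrane barrels, at 51 and 47.1 CPM in set-2 ash1(Y888F) against 105 and 104 CPM in H3G34R (-1.09). Of 6 genes for vitamin B6 and thiamine 4 were higher, among them pdx-1, for vitamin B6 synthesis, at 2187 and 2030 CPM in set-2 ash1(Y888F) against 916 and 975 CPM in H3G34R (1.16), and thi-4 (1.12). Of 50 amino acid synthesis genes 17 were higher and 3 lower, beside 26.3% and 25.5% over all genes (median 0.23); the number was 9 and 1 without N5247, 11 and 1 without N5248, 16 and 9 without N6266, and 12 and 9 without TMM. acu-3, for isocitrate lyase of the glyoxylate cycle, was higher, at 219 and 184 CPM in set-2 ash1(Y888F) against 50.6 and 48.4 CPM in H3G34R (2.02), whereas fbp-1, for the gluconeogenic fructose bisphosphatase, was lower, at 6.51 and 9.80 CPM in set-2 ash1(Y888F) against 28.9 and 36.5 CPM in H3G34R (-2.01).

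Of 72 glycoside hydrolase genes tested, 23 were higher, 20 lower and 29 did not pass, near the shares over all genes (26.3% higher, 25.5% lower), with a median of -0.02 (17 higher and 14 lower without N5247, 15 and 15 without N5248, 17 and 24 without TMM). gh13-6, of the amylase family, stood at 80.4 and 82.1 CPM in set-2 ash1(Y888F) against 9.06 and 9.18 CPM in H3G34R (3.15), and the xylanase family gene gh10-3 at 20.1 and 31.9 CPM in set-2 ash1(Y888F) against 4.15 and 1.91 CPM in H3G34R (3.09). gh3-6, of a glucosidase family, stood at 1.22 and 1.93 CPM in set-2 ash1(Y888F) against 17.2 and 12.5 CPM in H3G34R (-3.24), and gh5-1, of a cellulase family, at 0.949 and 1.63 CPM in set-2 ash1(Y888F) against 11.8 and 11 CPM in H3G34R (-3.14). Of the lytic polysaccharide monooxygenase genes, gh61-5 (2.72), gh61-6 (2.51) and gh61-2 (1.64) were higher. Of the regulators, clr-1 was higher (1.15) and clr-2, which acts below it, was lower (-1.62; not called without N5247, edgeR adjusted p = 0.05003). Among polyketide synthase genes, pks-2 and pks-4 were higher (3.02 and 1.07) and pks-5 was lower, at 59.8 and 183 CPM in set-2 ash1(Y888F) against 768 and 469 CPM in H3G34R (-2.35). The log2 fold change of pks-2 ranged from 0.42 to 3.12 over the alternatives. pks-3 was called (2.72, edgeR adjusted p = 0.00616), but not without N5247 (edgeR adjusted p = 0.0504), and its log2 fold change was 1.81 without N6266.

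Cell surface and signalling genes completed the lists. The cell wall protein genes acw-4 and ncw-1 were higher, at 551 and 721 CPM in set-2 ash1(Y888F) against 199 and 217 CPM in H3G34R (1.61), and at 873 and 1063 CPM in set-2 ash1(Y888F) against 353 and 385 CPM in H3G34R (1.39), whereas ncw-2 and ncw-6 were lower (-1.60 and -2.10), so that 7 of 28 were higher and 7 lower (3 and 3 without N5247, 4 and 3 without N5248, 4 and 11 without TMM). These shares, and those of the kinase genes below, lie near the shares over all genes, 26.3% higher and 25.5% lower. The count of fusion genes below is to be read beside the same shares. Of the genes for hyphal fusion, ham-7, for a cell surface sensor, stood at 373 and 372 CPM in set-2 ash1(Y888F) against 104 and 101 CPM in H3G34R (1.86), and ham-8 and the kinase kinase gene mek-1 were higher too (1.59 and 1.34). pp-1, the transcription factor below the MAK-2 kinase, was lower (-0.80), and mak-2 itself did not pass (0.30, edgeR adjusted p = 0.057; 0.0288 without N6267). Of 21 fusion genes 8 were higher and 6 lower (6 and 2 without N5247, 5 and 3 without N5248, 5 and 8 without TMM). Of the 52 stk kinase genes tested, 16 were lower and 10 higher (11 and 3 without N5247, 13 and 5 without N5248, 28 and 3 without TMM). The 5 lowest, named above, were set apart from the others, of which the next lowest was stk-55 (-1.46).

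Strongly differing genes lay beside each other in places. Runs of at least 3 genes adjacent in the annotation (assembly NC12, used for gene order only) that all differed by at least 4-fold in one direction numbered 34. Of these 10 were higher in set-2 ash1(Y888F), with 33 genes, and 24 were lower, with 95 genes; over the alternatives there were 7 to 17 higher and 20 to 30 lower, with 17 higher without N6266. The longest was on chromosome II, 8 genes from NCU05463 to NCU16539, all lower. Within it NCU05467 had 1.90 and 1.49 CPM in set-2 ash1(Y888F) against 413 and 435 CPM in H3G34R (log2 fold change -7.95), and NCU05469 had 1.49 and 0.891 CPM in set-2 ash1(Y888F) against 250 and 254 CPM in H3G34R (-7.69). NCU16538, in the same run, kept 23.3 and 30.9 CPM in set-2 ash1(Y888F) against 147 and 156 CPM in H3G34R (-2.49). A run of 6 genes on chromosome VI, NCU12069 to NCU07102, held 4 genes with no read in set-2 ash1(Y888F), and NCU04706, NCU04707, NCU04708 and NCU12077, also on chromosome VI, had no read in set-2 ash1(Y888F) at any of the 4. NCU12077 was not called without N5248 (edgeR adjusted p = 0.0542). stk-56 and stk-35 lay in 1 run on chromosome III, and parp in a run of 5 on chromosome V.

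The longest run that was higher lay on chromosome IV and held 5 genes. In it NCU11365 stood at 1395 and 1461 CPM in set-2 ash1(Y888F) against 20.4 and 23.2 CPM in H3G34R, and its neighbour NCU07597 at 48.5 and 50.2 CPM in set-2 ash1(Y888F) against 0.386 and 0.765 CPM in H3G34R. On chromosome VII, NCU09273 had 166 and 82.7 CPM in set-2 ash1(Y888F) against 1.74 and 5.07 CPM in H3G34R (5.19), with its neighbours NCU09274 and NCU09272 at 4.80 and 4.12. The 3 genes of that run were each higher in N6266 than in N6267. Among the outermost 50 genes of each chromosome end, 47 of 602 genes tested were at least 4-fold higher (7.81%) and 69 were lower (11.5%), against 4.725% and 6.16% of the 7958 other genes with a place in the order. No test of this difference was made, since neighbouring genes are not independent. The ends were uneven: 11 of 46 genes were at least 4-fold lower at the left end of chromosome II and 11 of 44 at the right end of IV. At each end of chromosome VII 1 of 47 was lower and 6 were higher. Some runs described above lie within the outermost genes.

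**Figure D4:**
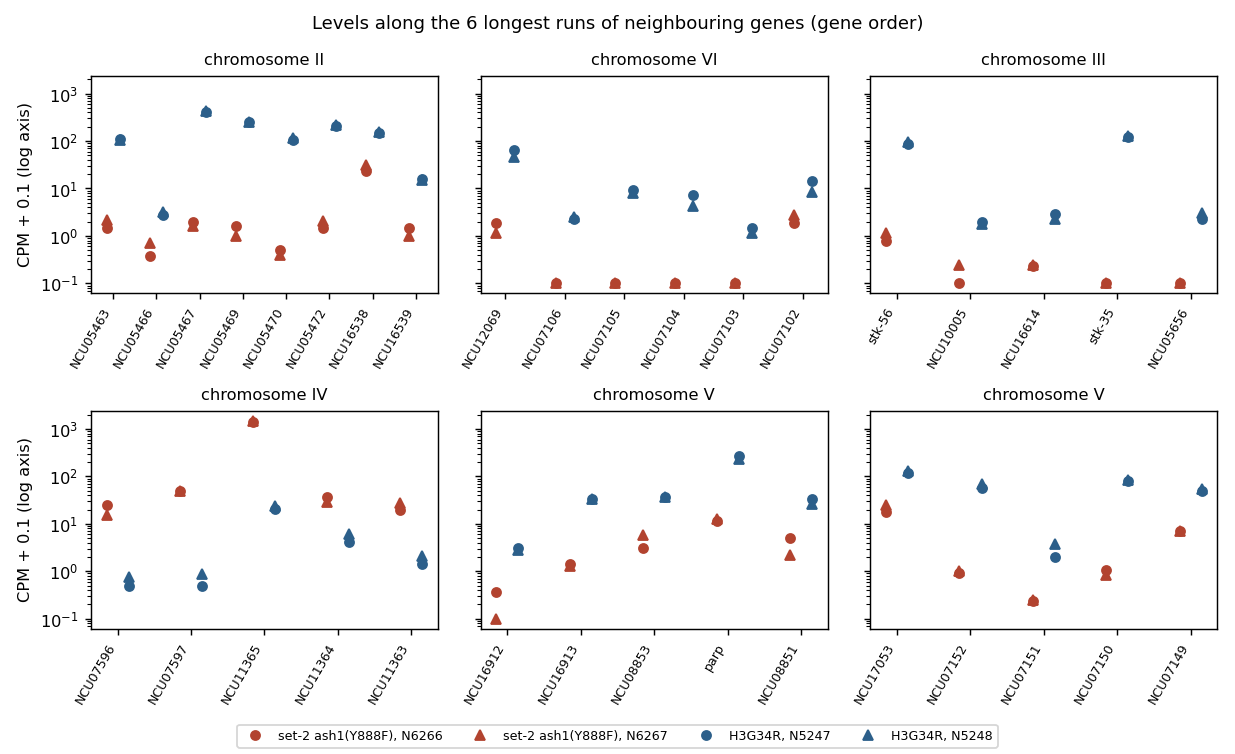
CPM (plus 0.1, log axis) of each gene in the 6 longest runs, in gene order, in the 4 libraries (red, set-2 ash1(Y888F); blue, H3G34R). In 5 runs every gene is lower in set-2 ash1(Y888F), several at the bottom of the axis with no reads, and in the run on chromosome IV every gene is higher.

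The authors' comparisons with wild type, which use wild-type libraries not analysed here, place each genotype on its own. In the authors' deposited table for set-2 ash1(Y888F), 1504 of 9254 genes with a fold change had an adjusted p under 0.05, 944 higher and 560 lower than wild type. In the authors' deposited table for H3G34R, 6186 of 9596 did, 3223 higher and 2963 lower. The median standard error of the log2 fold change was 0.33 in the authors' deposited table for set-2 ash1(Y888F) and 0.23 in the authors' deposited table for H3G34R, so the counts do not rest on equal precision. Whether both tables used the same wild-type libraries is not given in the sources used here and was not tested. At NCU01402 the tables differed by -1.55 (set-2 ash1(Y888F) minus H3G34R), against 8.96 in the direct comparison. The 2 counts of genes are therefore not taken to share a common reference.

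For some genes named above, chosen after their values were seen, the 2 tables are set side by side; both the direct comparison and the table for H3G34R may hold the same H3G34R libraries. sms-2 had log2 fold changes over wild type of 2.06 for set-2 ash1(Y888F) and 8.04 for H3G34R in the authors' deposited table of each, and pho-5 of 0.57 for set-2 ash1(Y888F) and 6.34 for H3G34R in the authors' deposited table of each. parp had -0.66 for set-2 ash1(Y888F) and 5.43 for H3G34R in the authors' deposited table of each. Among the light genes, cry had -1.90 for set-2 ash1(Y888F) and -6.67 for H3G34R, and al-2 had -0.79 for set-2 ash1(Y888F) and -6.05 for H3G34R, in the authors' deposited table of each. nit-3 had 0.67 for set-2 ash1(Y888F) and -3.35 for H3G34R, and app had 5.66 for set-2 ash1(Y888F) and 0.76 for H3G34R, in the authors' deposited table of each. The 2 tables often do not add up to the direct difference, and lists described above as mostly higher hold genes of opposite sign. The direct log2 fold change and the difference of the tables were 0.43 and -0.83 at rpt-3 (proteasome). They were 0.56 and -0.64 at crp-15 (ribosomal protein) and 1.08 and -0.96 at arg-12 (amino acid synthesis). Other genes kept their sign, with 1.59 and 1.65 at nuo14.8 and 1.60 and 0.83 at vma-7. ccg-9, lower in the direct comparison, had -1.43 for set-2 ash1(Y888F) and -3.61 for H3G34R, and con-10, also lower there, had 1.63 for set-2 ash1(Y888F) and -1.74 for H3G34R, in the authors' deposited table of each. NCU01402 was above wild type in both, with 1.61 for set-2 ash1(Y888F) and 3.17 for H3G34R in the authors' deposited table of each, although its direct log2 fold change between the genotypes was 8.96.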

How the data were processed

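Poly-A RNA was sequenced from stranded libraries, per the labels' protocols. The authors deposited raw read counts per gene, counted by STAR 2.6.0 (the submitters' processing notes); the genome build is not given in the sources used here. Lines of unassigned reads stayed out, and the sense column (the fourth) was used. The authors also deposited DESeq2 1.18.1 comparisons with wild type (the submitters' processing notes), with a mean normalised signal, a log2 fold change and its standard error, a Wald score and p-values; those files have no header, so the columns were recognised by their values. Names and gene order were taken from a RefSeq table (assembly NC12), which matched 9729 of 9730 genes. Counts were tested with edgeR 4.0.16 (glmQLFit, glmQLFTest, TMM, filterByExpr by genotype, all 6 libraries in 1 fit, two-sided, Benjamini-Hochberg at 0.05), in R 4.3.3; the test was run on simulated counts first. The contrast is set-2 ash1(Y888F) minus H3G34R. Alternatives were the 4 libraries alone, DESeq2 1.42.0, its size factors, no filter on low counts, both strands, a minimum of 1.5-fold, leaving out each library in turn and, chosen after seeing the data, no TMM. Precision is limited by 2 libraries per genotype; an empty library stands for at most 3 reads, or 0.407 and 0.446 CPM in set-2 ash1(Y888F) and 0.289 and 0.287 CPM in H3G34R. Named genes were the targeted genes, the 10 highest and 10 lowest called genes with non-overlapping libraries and at least 10 CPM, the 15 highest and 15 lowest of those with a symbol, genes with no reads in 1 genotype, members of runs and list members. The members and lists were chosen with earlier results of these data known. Lists can share members, so their counts are not independent: pp-1 was in the sexual and fusion lists, and per-1 in the sexual and polyketide lists. Results for some genes are not reported here.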

Additional observations from a re-analysis of the deposited data

How the results depend on the processing

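The number of genes called was 3979 from the 4 libraries alone, 4113 with DESeq2, 4453 with DESeq2 size factors in edgeR, 4403 without a filter and 4410 with both strands; 3930 of the 4435 genes were called in the same direction from the 4 libraries and 4033 with DESeq2. A minimum of 1.5-fold left 2248 called, 1156 higher and 1092 lower, and ash1 (log2 fold change -0.71) no longer passed (adjusted p = 0.122). Without TMM 3396 genes were lower, and set-2 (-0.70, adjusted p = 0.0194) and hH3 (-0.34, adjusted p = 0.0450) passed as lower. Leaving out 1 library at a time, with the lone library taken to vary like the other genotypes, gave 2754 to 4565 genes called, 1391 to 2301 higher and 1363 to 2264 lower; set-2 ranged from -0.59 to -0.22 and passed without N6266 (adjusted p = 0.0464), and hH3 ranged from -0.15 to 0.051, reversing without N6267. Of single genes named that were not called with all libraries, qip ranged from -0.43 to 2.29, nit-4 from -0.35 to 0.0013 and nuc-1 from -0.015 to 0.25 when 1 library was left out, and nuc-1 was -0.17 without TMM. Genes differing by at least 4-fold numbered 890 to 1036 over all alternatives. No paired analysis was possible because the labels carry no replicate numbers and the strains of the genotypes differ.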
